A study of Mus musculus with 45 samples.

Results

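The genes described here belong to the transforming growth factor beta (TGF-beta) family of signals: the ligands Tgfb1, Tgfb2, Tgfb3, Inhba and Gdf15, the receptors Tgfbr1, Tgfbr2 and Tgfbr3, and Tgfbi, a secreted matrix protein that TGF-beta induces. They were taken by these symbols from the gene symbol column of both deposited tables, and all 9 were found among the 19432 genes listed. The symbols were chosen with earlier results of these data known. All 9 also passed the filter for testing: a gene had to reach a normalized count of 10 in 3 libraries (T2 and T3) or 4 libraries (T1), the size of the smallest group.

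Polyadenylated RNA was sequenced from 45 mouse heart libraries, each made from a whole heart that had been perfused, frozen and powdered. Hearts labelled OE transiently overexpressed ERBB2, a receptor tyrosine kinase, in cardiomyocytes, and hearts labelled WT did not. Within each genotype some hearts were sham-treated and others injured, which the labels call MI and the series title ischemic injury. Sampling was during the overexpression (T1, labelled Dediff), 2 weeks later (T2, Intermediate) or 4 weeks later (T3, Rediff). This gives 12 groups of 4 libraries, except that WT MI T2, OE MI T2 and OE sham T3 held 3 each. The 16 libraries of T1 and the 29 of T2 and T3 were normalized in separate tables, so no value was tested between T1 and a later time. How the overexpression was driven and switched off, the age and strain of the mice, the time of injury relative to the overexpression and the treatment of WT hearts were not stated in the labels.

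TGF-beta ligands are secreted bound to their own propeptide and to latent TGF-beta binding proteins, and are freed by integrins, proteases and thrombospondin. The active dimer binds the type II receptor Tgfbr2, which recruits and phosphorylates the type I receptor Tgfbr1; SMAD2 and SMAD3 then carry the signal to the nucleus. In the heart the pathway is known for turning fibroblasts into matrix-producing myofibroblasts after injury. Inhba encodes the subunit of activin A, which signals through its own receptors to the same SMAD proteins, and Gdf15 encodes a distant family member that cells under stress release and that acts through a receptor in the brainstem.

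Each library held between 14199741 and 19015856 reads on the genes listed. Erbb2 itself lay between 200.67 and 303.07 normalized counts in the 8 WT libraries of T1 and between 768.84 and 2436.18 in the 8 OE libraries, so it followed the labels. At T2 it lay between 172.2 and 248.5 in WT and between 267.85 and 325.34 in OE libraries, still without overlap. At T3 it was 173.82 to 222.22 in WT sham and 235.02 to 239.63 in OE sham libraries. In MI libraries of T3 it was 184.51 to 219.15 in WT and 206.67 to 246.9 in OE hearts, which overlapped. All 7 cardiomyocyte markers were above 0 in every group. A set of 5 libraries stood apart at T3: the summed count of the atrial muscle genes Myl4, Myl7 and Sln was 1050 to 2316 in the 3 OE sham T3 libraries and 657 and 2327 in OE MI T3 replicates 2 and 1. The sum was 10309 and 10927 in OE MI T3 replicates 4 and 3, and 6338 to 15919 in WT sham T3. Results on OE hearts at T3 are therefore given beside these values, some also with these genes as a covariate or with the OE MI libraries split. Whether the amount of atrial tissue caused any of them was not tested. The labels number the libraries of a group but do not state separate litters or days, and a p-value here measures how these libraries vary, which may be technical.

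The promoters of the 4 ligand genes with the largest fold changes at T1 and a promoter entry are printed below. They were chosen because all 4 rose in sham OE hearts at T1. In sham OE against sham WT hearts only Tgfb2 of the 4 was called at T2, and none at T3. All 4 rose with injury in WT hearts at T2. The sequences are from RefSeq (GRCm38.p6), give the 250 bases before the start site on the gene's own strand, 5′ to 3′, and were searched on both strands for 6 motifs. These were the AP-1 site TGANTCA, the cAMP response element TGACGTCA, the E-box CACGTG, the SMAD binding element GTCTAGAC, the TATA box TATAAA and the Sp1 GC box GGGCGG; capitals mark each match, and no match overlapped another. Tgfb1 lies at chr7:25686752-25687001 (plus strand), Tgfb2 at chr1:186705990-186706239 (minus strand), Inhba at chr13:16011601-16011850 (plus strand) and Gdf15 at chr8:70632457-70632706 (minus strand).
Tgfb1: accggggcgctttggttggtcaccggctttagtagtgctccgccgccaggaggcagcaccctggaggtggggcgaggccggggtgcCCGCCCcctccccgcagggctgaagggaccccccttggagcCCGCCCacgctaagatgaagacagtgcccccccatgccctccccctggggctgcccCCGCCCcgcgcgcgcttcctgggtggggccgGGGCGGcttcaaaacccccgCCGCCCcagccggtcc
Tgfb2: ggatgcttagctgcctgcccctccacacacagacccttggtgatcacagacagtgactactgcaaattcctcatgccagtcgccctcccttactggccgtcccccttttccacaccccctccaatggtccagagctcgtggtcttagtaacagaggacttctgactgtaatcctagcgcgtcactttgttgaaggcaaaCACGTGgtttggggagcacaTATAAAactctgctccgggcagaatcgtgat
Inhba: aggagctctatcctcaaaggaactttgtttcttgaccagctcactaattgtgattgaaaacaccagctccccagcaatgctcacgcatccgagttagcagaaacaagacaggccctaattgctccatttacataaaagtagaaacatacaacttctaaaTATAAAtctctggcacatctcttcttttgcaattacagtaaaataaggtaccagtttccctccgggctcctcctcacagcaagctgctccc
Gdf15: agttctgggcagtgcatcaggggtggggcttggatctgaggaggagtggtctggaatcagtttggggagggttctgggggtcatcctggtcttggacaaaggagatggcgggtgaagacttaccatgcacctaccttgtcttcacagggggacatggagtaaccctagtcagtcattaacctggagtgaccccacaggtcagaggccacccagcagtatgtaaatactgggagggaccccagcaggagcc

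The Tgfb1 window was 75.2% G and C and held 5 GC boxes, at 164, 123, 67, 36 and 16 bases before the start counting from the first base of each match, and none of the other 5 motifs. Tgfb2 held 1 E-box, 51 to 46 bases before the start, and 1 TATA box, 31 to 26 bases before it. Inhba held 1 TATA box, 91 to 86 bases before the start, and was 43.2% G and C. Gdf15 held none of the 6 motifs in this window, although another RefSeq start site, 361 bases downstream, has an E-box in its own window. Of 32851 promoter windows of the same length, 32.7% held a GC box, 12.4% a TATA box, 6.75% an AP-1 site, 6.02% an E-box, 1.55% a cAMP response element and 0.167% the SMAD element. Entries were also found for Tgfbr1, Tgfbr2 and Tgfbi, 7 of the 9 genes in all; Tgfbr1 held 2 GC boxes, Tgfbi 1, and Tgfbr2 none of the motifs.

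**Figure D1:**
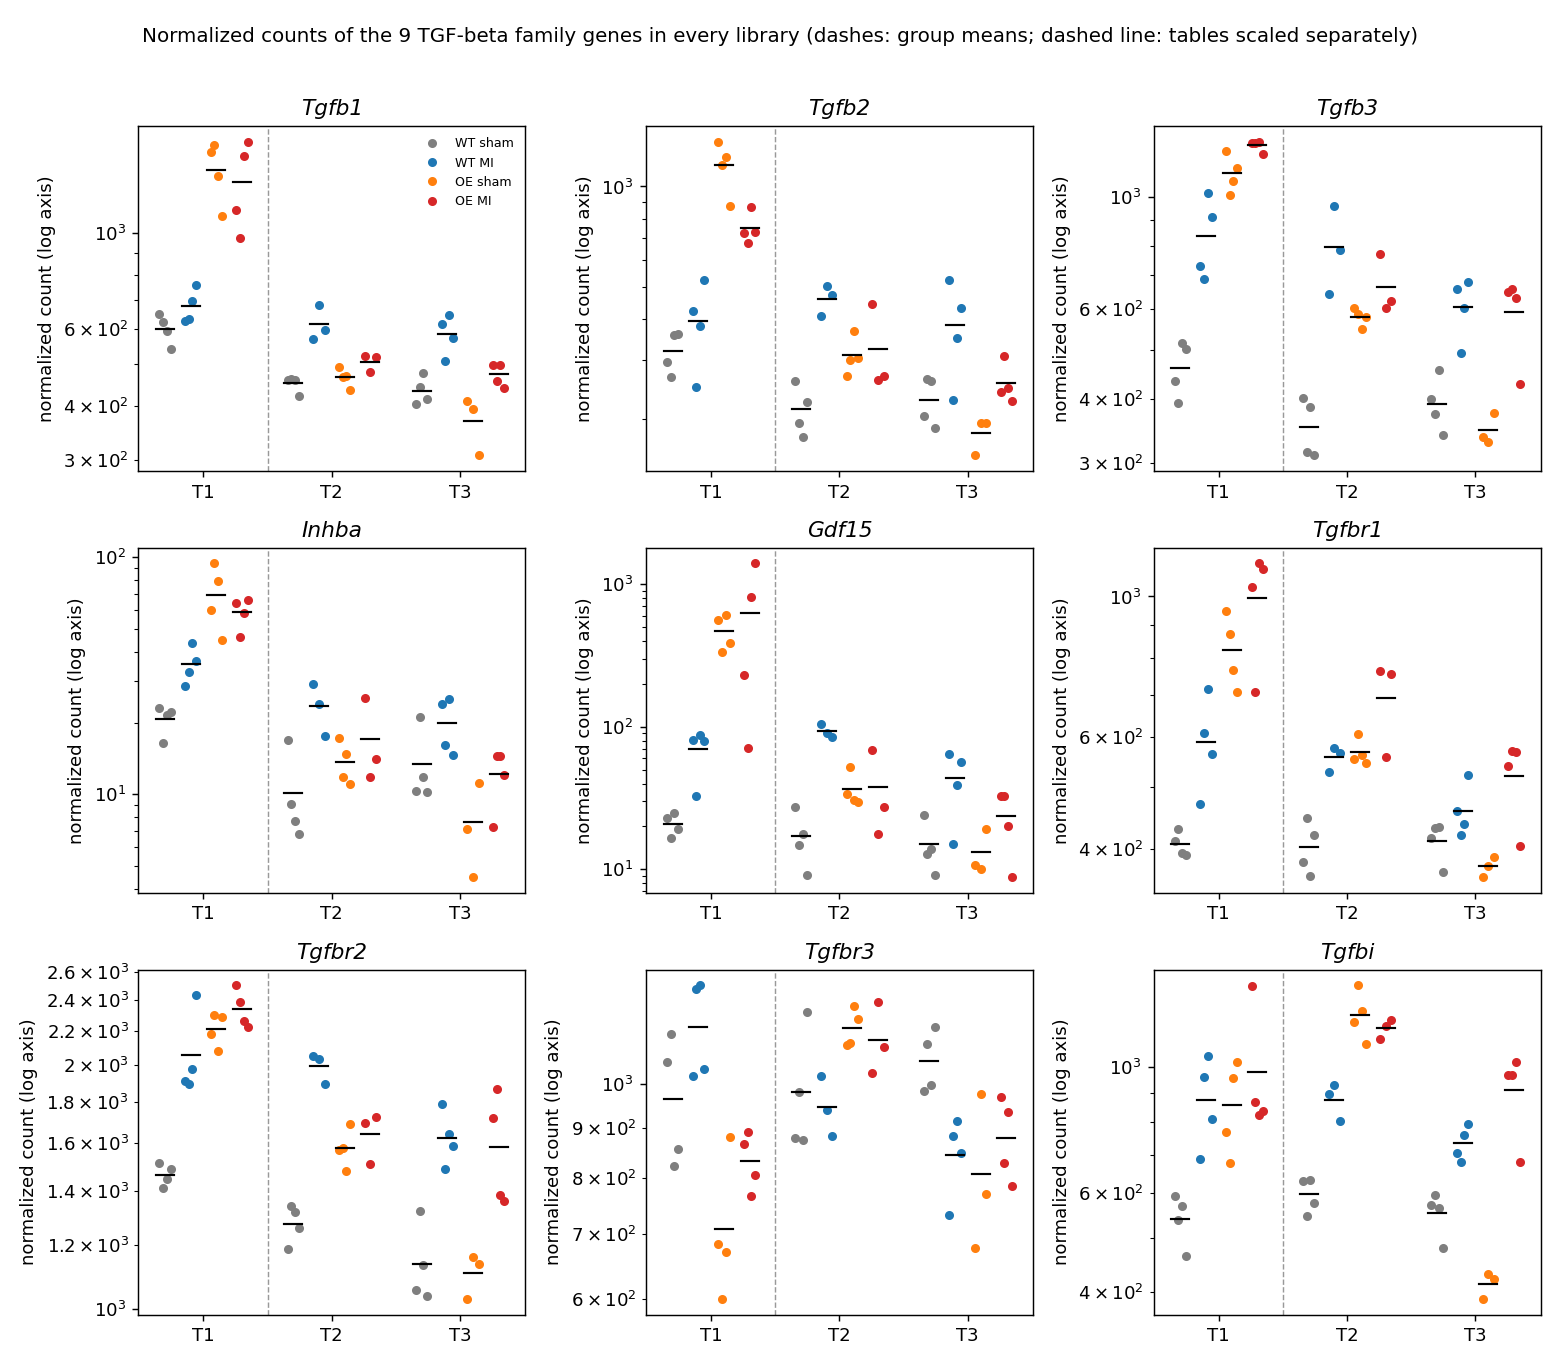
Normalized count (vertical axis, logarithmic) of each of the 9 genes in every library, by time on the horizontal axis and by group in colour (WT sham, WT MI, OE sham, OE MI); points are libraries, dashes group means, and the dashed line separates the tables that were scaled separately. The OE sham libraries of T1 lie above the WT sham libraries for the 5 ligand genes, whereas the OE sham libraries of T3 lie within or below the range of the WT sham libraries.

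During the overexpression all 5 ligand genes were higher in uninjured OE hearts than in uninjured WT hearts, by 2.29-fold for Tgfb1 to 21.2-fold for Gdf15. Tgfbr1, Tgfbr2 and Tgfbi rose less, by 1.51-fold to 2.01-fold, and Tgfbr3 fell 1.36-fold. In all, 8 of 9 genes rose and 1 fell at a limma adjusted p under 0.05, with a median log2 fold change of 1.2 against 0.01 over all 15375 genes tested; of those genes 47.3% were called, 24% higher and 23.3% lower. The OE and WT libraries did not overlap for 8 of the 9 genes, against 46.8% of all genes tested.

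Gdf15 was counted at 23.1, 16.5, 25 and 19.1 in the WT sham libraries of T1 and at 562, 333, 609 and 390 in the OE sham libraries. Every OE library was thus far above every WT library, and the log2 fold change was 4.41 ± 0.68 (SE, n = 4 against 4; limma adjusted p = 9.63e-05). Tgfb2, a ligand best known from heart development, rose from 296, 267, 357 and 360 to 1365, 1164, 1223 and 873. No library of one group reached the other, and the log2 fold change was 1.84 ± 0.19 (limma adjusted p = 2.08e-06).

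Inhba, at 23.1, 16.5, 21.6 and 22.3 in WT sham libraries, reached 60.2, 94.2, 79.5 and 44.8 in OE sham libraries, a log2 fold change of 1.65 ± 0.22 (limma adjusted p = 1.94e-05). The groups did not overlap although OE replicates 4 and 2 differed by more than the WT level itself. Tgfb1, the ligand most studied in fibrosis, was at 649, 623, 596 and 542 in WT and at 1533, 1596, 1351 and 1096 in OE hearts, a log2 fold change of 1.2 ± 0.15 (limma adjusted p = 9.97e-06). Tgfb3 was at 434, 393, 515 and 502 in WT and at 1230, 1006, 1074 and 1140 in OE hearts, a log2 fold change of 1.27 ± 0.11 (limma adjusted p = 5.36e-07). For both genes every OE library lay above every WT library.

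Among the receptors, Tgfbr1 rose from 406 ± 17.9 to 823 ± 108 normalized counts (mean ± SD, n = 4 each; log2 1.01 ± 0.15, limma adjusted p = 4.12e-05) and Tgfbr2 from 1464 ± 45.9 to 2213 ± 105 (log2 0.60 ± 0.08, limma adjusted p = 1.19e-05). Neither gene had overlapping libraries. Tgfbr3, the coreceptor betaglycan that presents Tgfb2 to the signalling receptors and can also be shed, was at 1052, 1125, 822 and 855 in WT and at 683, 600, 671 and 881 in OE hearts. OE replicate 4 lay within the WT range, and the log2 fold change was -0.44 ± 0.12 (limma adjusted p = 0.0076). The target Tgfbi rose from 540 ± 55.8 to 857 ± 162 (log2 0.65 ± 0.18, limma adjusted p = 0.00707), without overlap.

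Levels of different genes can be set beside each other only per length. In normalized counts per kilobase of exon (GENCODE, GRCm38), Tgfbr2 had the highest mean level of the 9 in WT sham hearts of T1, at 179, followed by Tgfbr3 at 147, Tgfbi at 143, Tgfb3 at 136 and Tgfb1 at 120. Tgfbr1 at 62.2 and Tgfb2 at 55.3 were lower, Gdf15 stood at 11.3 and Inhba at 3.26. In OE sham hearts the order of the means was Tgfb3 at 329, Tgfb1 at 277, Tgfbr2 at 270, Gdf15 at 256, Tgfbi at 227, Tgfb2 at 200, Tgfbr1 at 126, Tgfbr3 at 108 and Inhba at 10.9. Gdf15 thus moved from the 8th to the 4th place on this scale.

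Scaling the reads by library totals in place of the deposited factors moved the median over all genes from 0.01 to 0.31 and the calls from 3692 higher and 3579 lower to 7140 higher and 1789 lower. Under it the 8 rises were again called, with log2 fold changes from 0.90 for Tgfbr2 to 4.70 for Gdf15, and Tgfbr3 was at -0.14 (limma adjusted p = 0.364), below that median but not called. Cell type markers moved as well: 6 of 7 cardiomyocyte markers fell, their summed count being 718254 to 865826 in WT sham and 417401 to 496514 in OE sham libraries. Of the fibroblast markers 4 of 7 rose and 1 fell (summed count 34533 to 45527 and 30212 to 50738), and of the macrophage markers 5 of 8 rose (7015 to 8896 and 9319 to 11882), none of them at 0 in any group. In RNA of whole hearts, fewer cells of a type and less RNA per cell cannot be told apart, and the part of cell composition in the gene levels was not tested.

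**Figure D2:**
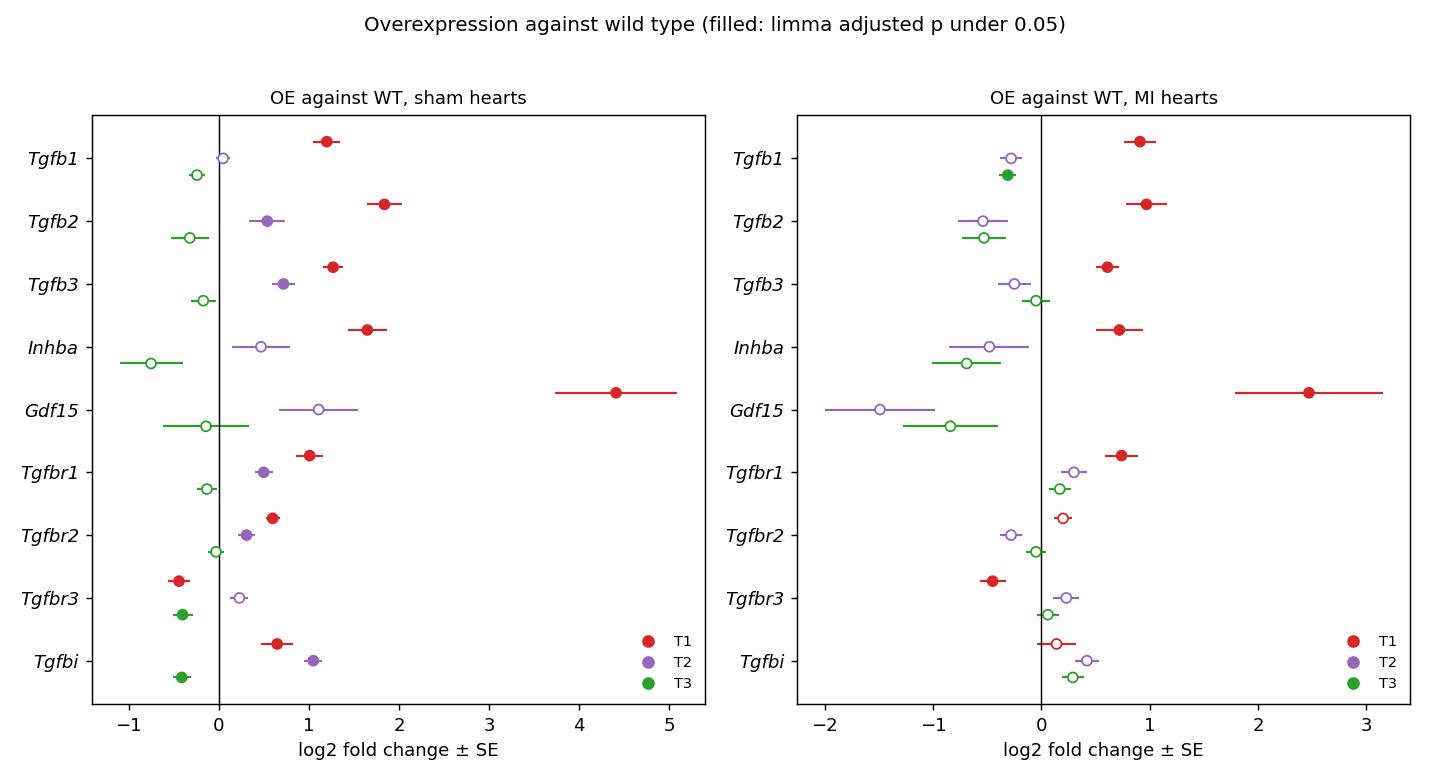
Log2 fold change ± SE of OE against WT hearts (horizontal axis) for each gene, in sham hearts (left) and MI hearts (right), at T1, T2 and T3 in colour; filled points passed a limma adjusted p of 0.05. In sham hearts the called gene farthest to the right is Gdf15 at T1 and Tgfbi at T2, and no gene is called higher at T3.

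In injured hearts of T1 the overexpression gave 6 genes higher and 1 lower of 9, where 29.9% of 15375 genes were called, 14.7% higher and 15.2% lower; the median was 0.72 against 0.01 over all genes. Tgfb2 rose by 0.97 ± 0.19, Tgfb1 by 0.91 ± 0.15, Tgfbr1 by 0.74 ± 0.15, Inhba by 0.72 ± 0.22 and Tgfb3 by 0.61 ± 0.11 on the log2 scale (limma adjusted p between 0.000294 and 0.0221), while Tgfbr3 fell by 0.45 (SE 0.12, limma adjusted p = 0.0114). Gdf15 was at 81.4, 32.8, 87.9 and 79.7 in WT MI libraries and at 232, 70.8, 808 and 1401 in OE MI libraries. OE MI replicate 2 lay within the WT range and replicate 4 far above the others, and the log2 fold change was 2.47 ± 0.68 (limma adjusted p = 0.0125). Tgfbr2 (0.20 ± 0.08, limma adjusted p = 0.0602) and Tgfbi (0.14 ± 0.18, limma adjusted p = 0.597) were not called.

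The calls in injured hearts of T1 rested in part on the fit. Gdf15 had a limma adjusted p of 0.0642 when only the groups compared were fitted. Inhba reached 0.0502 to 0.0668 without WT MI replicate 1 or 2 or OE MI replicate 1, 3 or 4. Tgfbr2 was called at 0.28 without WT MI replicate 4 (limma adjusted p = 0.0025). Library totals moved the median over all genes to 0.27 and the calls from 2256 higher and 2344 lower to 6274 and 1139. Under them Tgfbr3 was at -0.18 (limma adjusted p = 0.262) and Tgfbr2 was called at 0.47 (limma adjusted p = 0.00151).

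Injury in WT hearts at T1 raised 4 of the 9 genes, where 5.8% of all genes were called, 4.31% higher and 1.49% lower. Tgfb3 rose by 0.85 ± 0.11 (limma adjusted p = 0.00128), Tgfbi by 0.69 ± 0.18 (0.0375), Tgfbr1 by 0.52 ± 0.15 (0.0479) and Tgfbr2 by 0.48 ± 0.08 (0.00266) on the log2 scale. The WT MI and WT sham libraries did not overlap for 6 genes, these 4 with Gdf15 and Inhba, against 14.6% of all genes; Gdf15 (1.63 ± 0.68, limma adjusted p = 0.156) and Inhba (0.73 ± 0.22, 0.0618) did not pass. Tgfbi and Tgfbr1 lost their calls without any 1 of 7 libraries, the 4 WT sham libraries and WT MI replicates 2, 3 and 4, at limma adjusted p from 0.0556 to 0.142. The calls over all genes were 662 higher and 229 lower, and 1150 and 28 under library totals, which also called Inhba (0.83, limma adjusted p = 0.0346). Beside these values 5 of 7 fibroblast markers rose (summed count 47173 to 58526 in WT MI) and 6 of 8 macrophage markers (12217 to 21260); their part was not tested.

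In OE hearts of T1 injury changed none of the 9 genes by limma, edgeR or DESeq2, where 0.0065% of all genes were called; 1 gene, Tgfb2, was under an unadjusted p of 0.05. Tgfb2 was at 1365, 1164, 1223 and 873 in OE sham and at 724, 674, 868 and 731 in OE MI libraries. The highest OE MI library lay just under the lowest OE sham library, as groups did for 5.01% of all genes, with a log2 fold change of -0.61 ± 0.19 (limma adjusted p = 0.418). The interaction, which tests whether the injury response differed between OE and WT, called 0 of 9 genes by limma and by edgeR, against 0.0911% of all genes, 0.013% higher and 0.078% lower. These were 2 genes higher and 12 lower, and 0 and 9 under library totals. Its estimate was below 0 for all 9, 4 of them under an unadjusted p of 0.05, and DESeq2 called Tgfb3 (-0.68, DESeq2 adjusted p = 0.0157) and Tgfbr2 (-0.40, DESeq2 adjusted p = 0.0399). Without WT MI replicate 2 limma called 2 genes, Tgfb2 (-1.08, limma adjusted p = 0.0465) and Tgfb3 (-0.75, limma adjusted p = 0.05). These comparisons share libraries: OE sham libraries served both for the effect of OE and for that of injury, and WT sham libraries likewise.

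**Figure D3:**
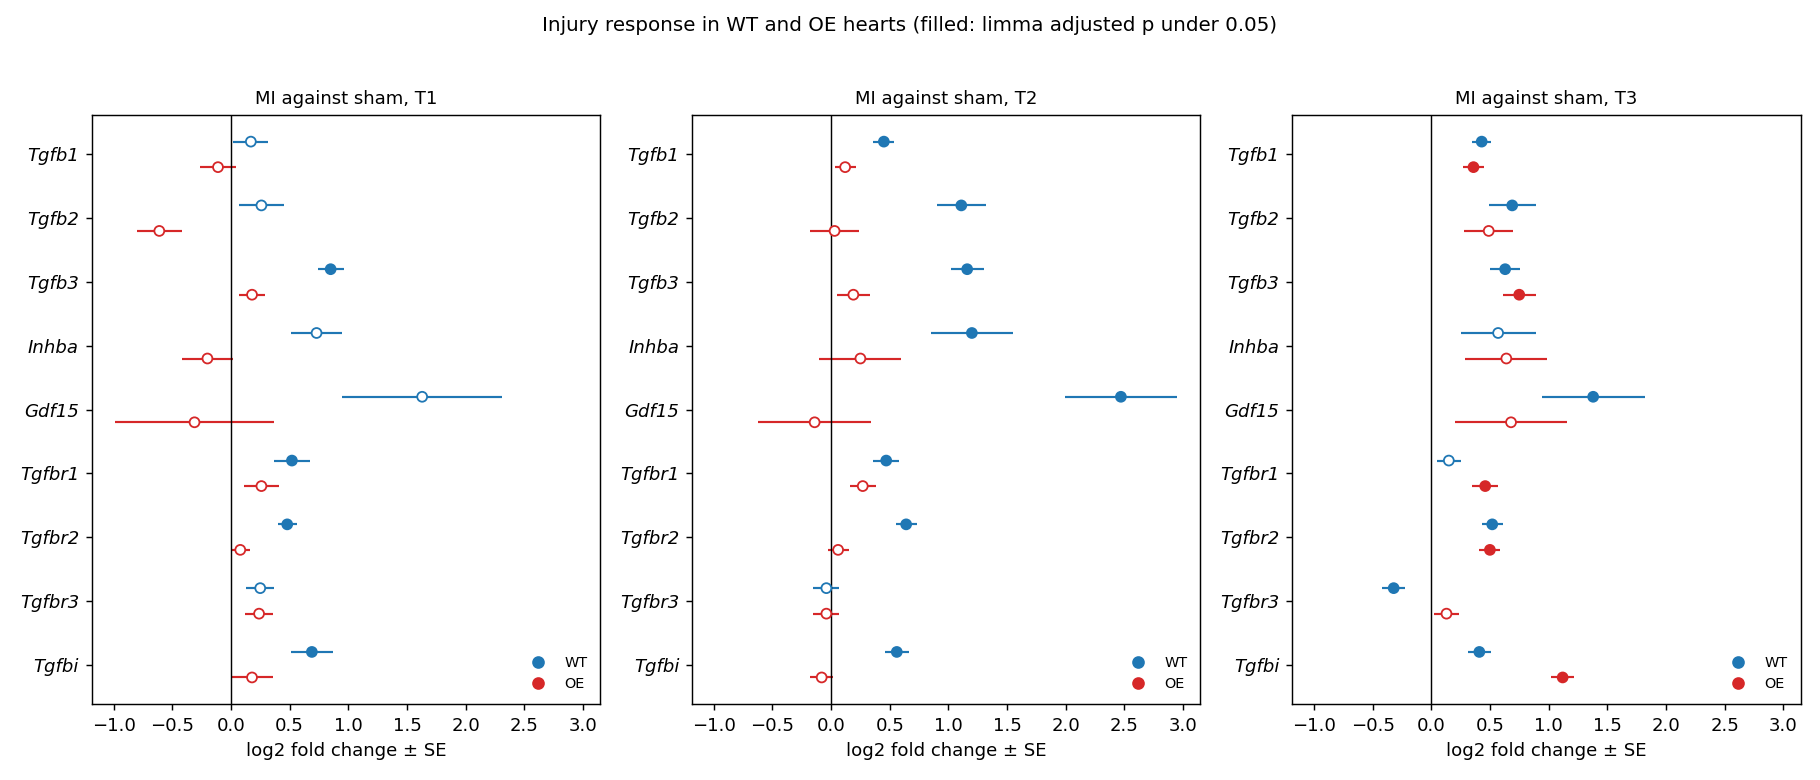
Log2 fold change ± SE of MI against sham hearts (horizontal axis) for each gene in WT (blue) and OE hearts (red) at T1, T2 and T3; filled points passed a limma adjusted p of 0.05. At T2, 8 of the 9 genes are called in WT hearts and none in OE hearts, and at T3 the estimates of both genotypes are above 0 for all genes but Tgfbr3.

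At T2, 2 weeks after the overexpression, uninjured OE hearts still had higher levels of 5 of the 9 genes, with Tgfbi now the gene with the largest called change, at 2.07-fold. The ligands Tgfb3 and Tgfb2 and the receptors Tgfbr1 and Tgfbr2 were also higher, by 1.65-fold, 1.45-fold, 1.41-fold and 1.24-fold, and none was lower. Of all 15533 genes 25.4% were called, 11.8% higher; the median was 0.50 for the 9 genes and 0.02 for all. The libraries did not overlap for 6 of 9 genes, against 25.6% of all genes.

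Tgfbi was at 631, 546, 632 and 576 in WT sham and at 1203, 1397, 1259 and 1102 in OE sham libraries of T2. All 4 OE libraries lay above all WT libraries, and the log2 fold change was 1.05 ± 0.10 (limma adjusted p = 2.65e-08). Tgfb3 was at 401, 315, 386 and 310 in WT and at 604, 587, 550 and 579 in OE libraries (log2 0.72 ± 0.13, limma adjusted p = 0.000278), also without overlap. Tgfbr1 rose by 0.50 ± 0.10 (limma adjusted p = 0.000601) and Tgfbr2 by 0.31 ± 0.09 (0.00969) on the log2 scale. Tgfb2 stood at the threshold, at 0.54 ± 0.20 (limma adjusted p = 0.0476); edgeR gave an adjusted p of 0.0515, and leaving out any 1 of 6 libraries (WT sham replicates 2, 3 and 4, OE sham replicates 2, 3 and 4) gave 0.0629 to 0.144.

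Gdf15 was at 27.2, 14.7, 17.7 and 9.09 in WT sham and at 33.7, 52.7, 30.6 and 29.9 in OE sham libraries of T2. The groups did not overlap, but the difference was not called (log2 1.11 ± 0.44, limma adjusted p = 0.0667). It was called when only the groups compared were fitted (0.0228), without WT sham replicate 1 (0.0362) and under library totals (1.31, limma adjusted p = 0.0268). Tgfb1 (0.05 ± 0.08), Inhba (0.47 ± 0.32) and Tgfbr3 (0.23 ± 0.10) did not pass either, although Tgfbr3 was called without WT sham replicate 4 (0.33, limma adjusted p = 0.0182). Library totals moved the median over all genes to 0.22 and the calls from 1834 higher and 2109 lower to 5178 and 763, and called 8 of the 9 genes higher. Beside these values, 6 of 7 fibroblast markers rose (summed count 30585 to 37674 in WT and 42040 to 49683 in OE libraries). Of the others, 6 of 7 cardiomyocyte markers fell (702057 to 850780 and 565368 to 620466) and 3 of 8 macrophage markers fell (6057 to 9482 and 5220 to 5843). Their part in the result was not tested.

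Injury in WT hearts at T2 raised 8 of the 9 genes, all but Tgfbr3. Gdf15 rose 5.52-fold, Inhba 2.29-fold, Tgfb3 2.24-fold and Tgfb2 2.16-fold, the receptors and Tgfbi by 1.39-fold to 1.56-fold and Tgfb1 by 1.36-fold. Of all genes 21.8% were called, 11.4% higher and 10.4% lower, and the median was 0.64 against 0.01. For the same 8 genes the WT MI and WT sham libraries did not overlap, against 26.5% of all genes.

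The 3 WT MI libraries of T2 held 105, 90.5 and 84.5 Gdf15 counts, against 27.2, 14.7, 17.7 and 9.09 in WT sham libraries (log2 2.47 ± 0.48, limma adjusted p = 0.000696). For Tgfb3 they held 643, 960 and 787 against 401, 315, 386 and 310 (log2 1.16 ± 0.14, limma adjusted p = 8.79e-06), and for Tgfb2 408, 500 and 470 against 261, 194, 177 and 225 (log2 1.11 ± 0.21, limma adjusted p = 0.000764). In each case the lowest injured heart was well above the highest sham heart. Inhba (1.2 ± 0.35, limma adjusted p = 0.0144) lost its call without WT MI replicate 2 (0.0838) or 3 (0.0519) and when only the groups compared were fitted (0.0572). Library totals moved the median over all genes to 0.13 and the calls from 1766 higher and 1613 lower to 2692 and 553, and left all 8 genes called.

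In OE hearts at T2 injury changed 0 of the 9 genes by limma, edgeR and DESeq2, with 1 under an unadjusted p of 0.05 (Tgfbr1, 0.27 ± 0.11) and 0.0258% of all genes called. Gdf15 was at 68.8, 17.7 and 27.4 in OE MI libraries, around the 33.7, 52.7, 30.6 and 29.9 of OE sham libraries, and Tgfb3 at 770, 604 and 623 against 604, 587, 550 and 579. OE MI replicate 1 was the highest of its group for Gdf15, Tgfb3, Tgfb2, Inhba, Tgfb1 and, narrowly, Tgfbr1. All 9 genes overlapped between injured and sham OE hearts, against 11.1% of all genes that did not. The interaction called 5 of the 9 genes, all lower, where 4.94% of all genes were called, 2.39% higher and 2.54% lower. These were Gdf15 (-2.61 ± 0.68, limma adjusted p = 0.0248), Tgfb2 (-1.08 ± 0.30, 0.0402), Tgfb3 (-0.97 ± 0.20, 0.0117), Tgfbi (-0.63 ± 0.15, 0.0153) and Tgfbr2 (-0.59 ± 0.13, 0.0135), so for these 5 the injury response differed between the genotypes.

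This difference rested in part on groups of 3, WT MI and OE MI. Without OE MI replicate 3 no gene was called (limma adjusted p from 0.0535 for Tgfb3 to 0.138 for Tgfb2). In that library the summed count of Myl4, Myl7 and Sln was 4499, against 17179 and 14956 in OE MI replicates 1 and 4. With these genes as a covariate, chosen after seeing the data, the 5 genes were still called (limma adjusted p 0.0126 to 0.0442). The part of atrial tissue was not tested further. Without WT MI replicate 2 or 3, OE MI replicate 4 or OE sham replicate 2 the count was 2 or 3. Tgfb2 also lost its call without WT MI replicate 4, WT sham replicate 2 or 3 or OE sham replicate 3 or 4 (limma adjusted p 0.0545 to 0.0736). Library totals moved the median of the interaction over all genes from -0.01 to -0.14 and its calls from 372 higher and 395 lower to 71 and 629. The 5 genes were still called, from -0.72 for Tgfbr2 to -2.73 for Gdf15. Of the fibroblast markers 7 of 7 rose with injury in WT hearts (summed count 49097 to 55982 in WT MI). In OE hearts 0 of 7 did so (45486 to 54307 in OE MI, 42040 to 49683 in OE sham), and 3 of 7 were lower in the interaction. Their part in the 5 genes was not tested.

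Between injured hearts of the 2 genotypes at T2, 0 of 9 genes were called by limma, where 1.56% of all genes were, 1.15% lower. Of the 9, 6 were under an unadjusted p of 0.05 and 5 had no overlap between the groups, against 19% of all genes. The estimates had opposite signs: Gdf15 -1.49 ± 0.51, Tgfb2 -0.54 ± 0.23, Tgfb1 -0.28 ± 0.10 and Tgfbr2 -0.28 ± 0.10, but Tgfbi 0.42 ± 0.11 and Tgfbr1 0.30 ± 0.12. Tgfbi was just outside the threshold (limma adjusted p = 0.0506) and was called by edgeR (edgeR adjusted p = 0.0417) and DESeq2 (DESeq2 adjusted p = 0.0153), which called no other member. The calls over all genes were 63 higher and 179 lower, and 143 and 89 under library totals.

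At T3, 4 weeks after the overexpression, uninjured OE hearts had no member higher than WT hearts and 2 lower, where 13.1% of all genes were called, 6.54% higher and 6.57% lower. Tgfbi was at 571, 595, 564 and 480 in WT sham and at 390, 431 and 423 in OE sham libraries (log2 -0.41 ± 0.10, limma adjusted p = 0.01). Tgfbr3 was at 982, 1099, 996 and 1143 in WT and at 676, 976 and 769 in OE libraries (log2 -0.40 ± 0.11, limma adjusted p = 0.0158). For these 2 genes alone the groups did not overlap, against 25.6% of all genes, and the median was -0.24 against -0.02.

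Both calls were lost under library totals (Tgfbi -0.31, limma adjusted p = 0.0811; Tgfbr3 -0.30, 0.0714), which changed the calls over all genes from 1016 higher and 1020 lower to 2019 and 545, and without OE sham replicate 1 (0.0612 and 0.144). Tgfbr3 was also not called without OE sham replicate 3 (0.0856). The OE sham libraries of T3 are those low in atrial genes: all 4 atrial muscle markers fell, with a median log2 fold change of -3.09. With the level of Myl4, Myl7 and Sln as a covariate, chosen after seeing the data, Tgfbi was at -0.48 (limma adjusted p = 0.0483) and Tgfbr3 at -0.45 (0.0752). Of the fibroblast markers 2 of 7 fell as well (summed count 35084 to 40289 in WT and 27636 to 31159 in OE libraries), and their part was not tested.

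Injury at T3 raised 6 genes and lowered 1 in WT hearts, where 14.9% of all genes were called, 8.25% higher and 6.67% lower. Gdf15 (1.38 ± 0.44, limma adjusted p = 0.0358), Tgfb2 (0.69 ± 0.20, 0.0208), Tgfb3 (0.63 ± 0.13, 0.00294), Tgfbr2 (0.52 ± 0.09, 0.000482), Tgfb1 (0.43 ± 0.08, 0.0013) and Tgfbi (0.41 ± 0.10, 0.00517) rose, and Tgfbr3 fell by 0.32 (SE 0.10, 0.0309) on the log2 scale. Gdf15 was at 64.0, 15.1, 39.3 and 56.5 in WT MI libraries, of which replicate 2 lay within the sham range of 9.2 to 24. Tgfb2 showed the same overlap, with WT MI replicate 2 at 227 and sham libraries at 188 to 263.

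Gdf15 lost its call at T3 without any 1 of 6 libraries, WT sham replicates 2, 3 and 4 and WT MI replicates 1, 3 and 4 (limma adjusted p 0.0678 to 0.13). Tgfb2 lost it without WT sham replicate 1 or 4 or WT MI replicate 1 or 4 (0.0531 to 0.0986). Tgfbr3 lost it without WT sham replicate 2 or 4 or WT MI replicate 1 or 4 (0.0563 to 0.13). Gdf15 and Tgfb2 were also not called when only the groups compared were fitted (limma adjusted p = 0.0647 and 0.111). Library totals moved the median over all genes from 0 to 0.18 and the calls from 1281 higher and 1036 lower to 3612 and 195. Under them Tgfbr3 was at -0.14 (0.34) and Tgfbr1 was called at 0.34 (0.031). Macrophage markers rose in 8 of 8 cases (summed count 5340 to 7695 in WT sham and 9253 to 13785 in WT MI) and fibroblast markers in 3 of 7 (35084 to 40289 and 35478 to 46822); their part was not tested.

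In OE hearts at T3 injury raised 5 genes, where 19.1% of all genes were called, 11.1% higher. Tgfbi changed most, from 390, 431 and 423 in OE sham to 969, 971, 1023 and 680 in OE MI libraries. Even the lowest injured heart, replicate 4, was above all sham hearts, and the log2 fold change was 1.12 ± 0.10 (limma adjusted p = 4.37e-07). Tgfb3 (0.75 ± 0.14), Tgfbr2 (0.50 ± 0.09), Tgfbr1 (0.46 ± 0.11) and Tgfb1 (0.36 ± 0.09) also rose (limma adjusted p 0.00104 to 0.00736), while Gdf15 (0.68 ± 0.48), Inhba (0.64 ± 0.35) and Tgfb2 (0.49 ± 0.21) did not pass. With the atrial genes as a covariate all 5 raised genes were still called. Their log2 fold changes then ran from 0.29 for Tgfb1 (limma adjusted p = 0.029) to 1.15 for Tgfbi (limma adjusted p = 7.48e-07). These 5 genes also kept their calls with OE MI replicates 1 and 2 alone, which are low in atrial genes like the OE sham libraries. With OE MI replicates 3 and 4 alone, those with the higher atrial counts, Tgfbi was the gene still called. Tgfb3 was then at 0.58 (limma adjusted p = 0.0673). Tgfb1 also lost its call without OE sham replicate 3 (0.23, limma adjusted p = 0.094). The calls over all genes were 1722 higher and 1241 lower, and 3056 and 167 under library totals with the median at 0.15. Of the fibroblast markers 6 of 7 rose (summed count 39041 to 43801 in OE MI) and of the macrophage markers 8 of 8 (4327 to 4997 in OE sham, 6561 to 9843 in OE MI), and their part was not tested.

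The interaction at T3 called 0 of 9 genes by limma and edgeR, where 0.00644% of all genes were called, with 2 under an unadjusted p of 0.05. The estimate for Tgfbi was 0.70 ± 0.14 (limma adjusted p = 0.114); DESeq2 called it (0.72, DESeq2 adjusted p = 0.00518). limma called it without OE MI replicate 4 (0.84, limma adjusted p = 0.00059), OE sham replicate 2 (0.73, 0.0445) or WT sham replicate 1 (0.69, 0.041). Between injured hearts at T3 only Tgfb1 was called, lower in OE hearts by 0.31 (SE 0.08, limma adjusted p = 0.0389), where 3.28% of all genes were called, 2.09% lower. It was at 619, 507, 646 and 575 in WT MI and at 496, 457, 497 and 441 in OE MI libraries, without overlap, which held for 9.29% of all genes. It lost the call without any 1 of 7 of these 8 libraries, all but WT MI replicate 2 (0.0518 to 0.141), with the atrial covariate (-0.23, 0.222) and under library totals (-0.23, 0.193). Without OE MI replicate 4 Tgfbi was called there (0.43, limma adjusted p = 0.00268), and without WT MI replicate 2 Tgfb2 (-0.75, 0.0155). The calls over all genes in that comparison were 186 higher and 324 lower, and 514 and 187 under library totals.

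Between T2 and T3, 8 of the 9 genes fell in OE sham hearts, all but Inhba, where 30.9% of all genes were called, 15.1% lower; the median was -0.74 against -0.01. Tgfbi fell by 1.57 (SE 0.10) on the log2 scale (2.98-fold, limma adjusted p = 1.36e-10), from 1102 to 1397 counts at T2 to 390 to 431 at T3. Gdf15 fell by 1.42 (SE 0.48, limma adjusted p = 0.0261), Tgfb2 by 0.77 (SE 0.21, 0.0088), Tgfb3 by 0.74 (SE 0.14, 0.000476), Tgfbr1 by 0.60 (SE 0.11, 0.000224), Tgfbr3 by 0.52 (SE 0.11, 0.000896), Tgfbr2 by 0.51 (SE 0.09, 0.000241) and Tgfb1 by 0.34 (SE 0.09, 0.00542). The libraries of the 2 times did not overlap for these 8 genes, against 42.1% of all genes. Library totals moved the median over all genes to -0.18 and made each of these falls larger, to between -0.51 for Tgfb1 and -1.75 for Tgfbi. The calls over all genes went from 2453 higher and 2343 lower to 676 and 4087. Inhba (-0.83, limma adjusted p = 0.0689) was called under library totals (-0.99, limma adjusted p = 0.0377) and without OE sham T3 replicate 3 (-1.12, limma adjusted p = 0.0343).

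All 4 atrial muscle markers were lower at T3 in the same comparison, with a median of -2.88, and 6 of 7 fibroblast markers fell (summed count 42040 to 49683 at T2 and 27636 to 31159 at T3). With the atrial genes as a covariate 5 of the 9 genes were called: Tgfbi at -1.64 (limma adjusted p = 2.81e-08), Tgfb3 at -0.77 (0.0061), Tgfbr1 at -0.63 (0.00302), Tgfbr2 at -0.62 (0.000776) and Tgfbr3 at -0.56 (0.00685). Gdf15 (-1.7, 0.0523), Tgfb2 (-0.73, 0.0672) and Tgfb1 (-0.21, 0.188) were then outside the threshold, and the part of the atrial tissue was not tested further. Gdf15 also lost its call without OE sham T2 replicate 2 or OE sham T3 replicate 1 or 2 (0.0779 to 0.092), Tgfb2 without OE sham T3 replicate 1 (0.0551) and Tgfb1 without OE sham T3 replicate 3 (0.0853).

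In the other 3 group pairs, T3 against T2 changed none of the 9 genes by limma or edgeR. Of all genes 0.341% were called in WT sham, 0.00644% in WT MI and 0.283% in OE MI. Under an unadjusted p of 0.05 were 0, 5 and 3 of the 9 genes, and DESeq2 called none in WT sham and WT MI. In OE MI it called Tgfbr1 (-0.41, DESeq2 adjusted p = 0.0311) and Tgfbi (-0.36, DESeq2 adjusted p = 0.0476), and limma called Tgfbr1 there without OE MI T2 replicate 3 (-0.56, limma adjusted p = 0.0298). Over all genes WT sham had 24 calls higher and 29 lower, and 9 and 131 under library totals. Whether the change from T2 to T3 differed between OE and WT hearts was not tested.

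**Figure D4:**
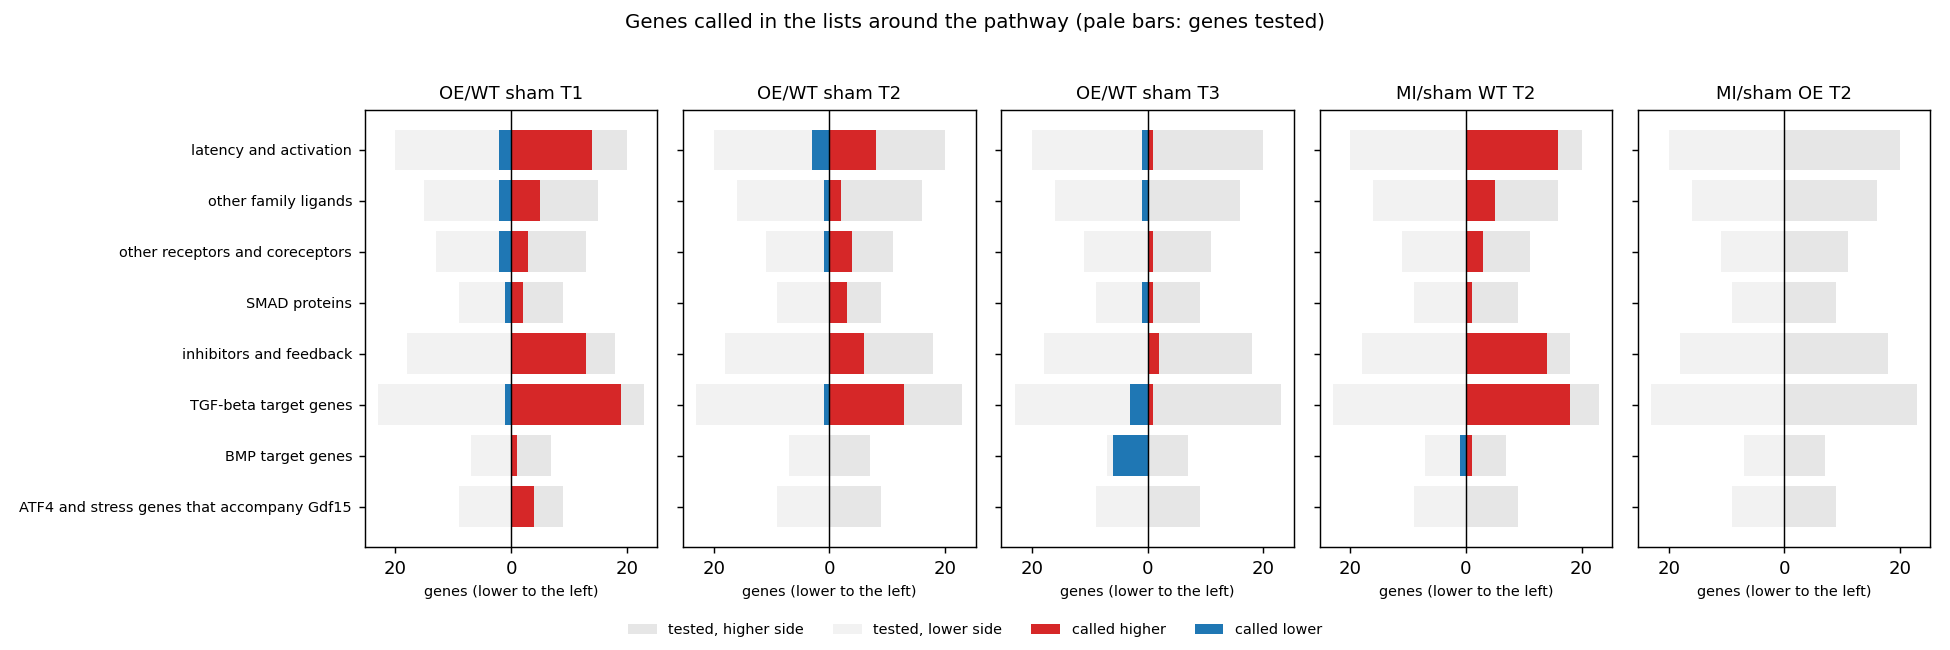
Genes called higher (red, right) and lower (blue, left) in 8 lists around the pathway, as numbers of genes on the horizontal axis, with pale bars for the number tested, in OE against WT sham hearts at T1, T2 and T3 and in MI against sham hearts of WT and OE at T2. The TGF-beta target genes have 19 calls higher at T1, 13 at T2 and 1 at T3 in sham OE hearts, and 18 in injured WT hearts but none in injured OE hearts at T2.

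The wider pathway was described through 8 lists from textbook knowledge, by counts of called genes. The lists were chosen with earlier results of these data known, so the counts are a description and not a test. In OE against WT sham hearts at T1, where 47.3% of all genes were called (24% higher and 23.3% lower), 19 of 23 TGF-beta target genes rose and 1 fell, with a median log2 fold change of 2.03 against 0.01. Tnc (4.88 ± 0.41, limma adjusted p = 5.49e-07), Cthrc1 (4.32 ± 0.55, 1.55e-05) and Postn (3.64 ± 0.19, 2.04e-08), matrix proteins of activated fibroblasts, and Timp1 (3.29 ± 0.49, 8.01e-05), an inhibitor of matrix proteases, led the list. The gene that fell was Acta2 (-1.02 ± 0.28, limma adjusted p = 0.0082), an actin of smooth muscle that also marks myofibroblasts. It was not called under library totals, which called 21 target genes higher and none lower. The summed count of 6 markers of mural (vessel wall) cells was 18400 to 22139 in WT sham libraries of T1. In OE sham libraries of T1 the sum was 15590 to 17176, and the part of these cells was not tested.

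Of 20 genes for storage and activation of the ligands, 14 rose and 2 fell at T1 in sham hearts, with a median of 1.07. Thbs1 (3.30 ± 0.57, limma adjusted p = 0.00029), which frees latent TGF-beta, Ltbp2 (3.28 ± 0.27, 3.51e-07), a matrix protein of the latent binding protein family, and the proteases Mmp14 (2.89 ± 0.23, 2.76e-07) and Mmp2 (2.40 ± 0.13, 2.04e-08) rose most. Itgb6 (-2.35 ± 0.27, limma adjusted p = 4.68e-06), the subunit of an activating integrin, and Mmp9 (-1.80 ± 0.59, 0.0207) fell. Of 18 inhibitors and feedback genes 13 rose and none fell (median 0.84), among them the activin-binding Fstl3 (1.83 ± 0.32, limma adjusted p = 0.000298), the proteoglycans Fmod (1.81 ± 0.21, 5.84e-06) and Bgn (1.77 ± 0.16, 5.9e-07) and the SMAD corepressor Tgif1 (1.33 ± 0.17, 1.05e-05).

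The other lists had fewer calls at T1, to be read against the 47.3% of all genes called there. Of 9 SMAD genes 2 rose, Smad1 (0.50 ± 0.12, limma adjusted p = 0.00375) and Smad2 (0.33 ± 0.10, 0.0169), and Smad9 fell (-1.22 ± 0.38, 0.0143), with a median of 0.09. Of 13 other receptors 3 rose and 2 fell, among them Acvr1 (0.63 ± 0.10, limma adjusted p = 0.000132) and Acvr2b (-0.81 ± 0.24, 0.0118), receptors for BMPs and activins. This share was no higher than that over all genes. Of 15 other ligands 5 rose and 2 fell, including Gdf6 (1.96 ± 0.70, limma adjusted p = 0.0304), the activin subunit Inhbb (1.44 ± 0.40, 0.00737) and Bmp7 (-1.18 ± 0.35, 0.0117), a share near that over all genes. Of 7 BMP target genes 1 rose, Id4 (1.08 ± 0.29, limma adjusted p = 0.00661). Of 9 genes of the ATF4 and p53 stress responses that can accompany Gdf15, 4 rose: Asns (0.93 ± 0.26, limma adjusted p = 0.00824), Atf4 (0.77 ± 0.17, 0.00185), Sesn2 (0.50 ± 0.16, 0.0189) and Ddit3 (0.42 ± 0.17, 0.0496), each by less than Gdf15 at 4.41 on the same log2 scale. The share of this list called was also near that over all genes.

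In sham hearts at T2, where 25.4% of all genes were called (11.8% higher and 13.6% lower), 13 of 23 TGF-beta target genes rose and 1, Acta2, fell (median 0.66), led by Nox4 (1.80 ± 0.41, limma adjusted p = 0.00265), an oxidase, Cthrc1 (1.46 ± 0.44, 0.0157) and Tnc (1.40 ± 0.37, 0.00629). Storage and activation genes rose in 8 and fell in 3 of 20 cases, with Mmp2 (1.7 ± 0.19, limma adjusted p = 1.54e-06) and Itgb6 (-0.78 ± 0.15, 0.00041) at the extremes of those named. None of the 9 stress genes was called (1 under an unadjusted p of 0.05, 0 by edgeR and 0 by DESeq2). In sham hearts at T3, where 6.54% of all genes were called higher and 6.57% lower, 1 of the 23 target genes rose, Scx (0.95 ± 0.23, limma adjusted p = 0.00804), and 3 fell, among them Ctgf (-1.27 ± 0.25, 0.0019) and Acta2 (-0.91 ± 0.24, 0.0163). Of 7 BMP target genes 6 fell there, among them Hamp (-3.52 ± 0.99, limma adjusted p = 0.022), Hey1 (-0.66 ± 0.15, 0.00409) and Id2 (-0.54 ± 0.14, 0.0111), in the libraries low in atrial genes; under library totals 3 fell.

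With injury at T2, 18 of the 23 target genes rose in WT hearts (median 1.57), where 11.4% of all genes were called higher. They were led by Cthrc1 (4.65 ± 0.48, limma adjusted p = 1.61e-06), Comp (3.63 ± 0.56, 0.000149) and Tnc (3.16 ± 0.40, 1.28e-05). In OE hearts 0 of 23 were called by limma, edgeR or DESeq2, with 6 under an unadjusted p of 0.05 and a median of 0.34, where 0.0258% of all genes were called. The interaction called 11 of 23, all lower, where 2.54% of all genes were called lower, with a median of -1.30 against -0.01 over all genes. Cthrc1 (-3.04 ± 0.67, limma adjusted p = 0.0132), Tnc (-2.46 ± 0.56, 0.0149), Timp1 (-1.82 ± 0.49, 0.0301) and Postn (-1.74 ± 0.41, 0.0187) were among them. So were Ltbp2 (-2.36 ± 0.64, 0.0358) and Thbs1 (-1.99 ± 0.40, 0.0113) of the storage and activation list, in which 7 of 20 were lower. At T3 injury raised 15 of 23 target genes in WT hearts and 15 of 23 in OE hearts, where 8.25% and 11.1% of all genes were called higher.

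The genes whose pattern was most like each member were named by the smaller of 2 Pearson correlations of log2 values, over the 16 libraries of T1 and over the 29 of T2 and T3, among 11327 genes; libraries share their groups, so r is given as a description. Tgfb3 was closest to Mfap4 (r 0.97 and 0.95) and Tgfbr2 to Col5a2 (0.94 and 0.93), Tgfb1 to Igfbp7 (0.93 and 0.92) and Tgfb2 to Fam198b (0.96 and 0.90). Gdf15 was closest to Chpf (0.91 and 0.90), Tgfbr1 to Itgb5 (0.89 and 0.88), Tgfbi to Pdgfrl (0.87 and 0.87) and Inhba to Nppb (0.91 and 0.83). Tgfbr3 had no gene as near, the closest being Crebrf (0.81 and 0.72). Among the members themselves Tgfb3 and Tgfbr2 were the nearest pair by this measure (0.94 and 0.87), and Tgfbr3 ran against Tgfb2 at T1 (-0.84) but not later (0.04).

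The reads of 3 genes may include those of neighbours. For Tgfb2 and Tgfb3 this depends on whether counting used the strand, which no source used here says. For Tgfbr3 the shared bases lie on its own strand, so the strand cannot separate them. On GRCm38, Tgfb2 (ENSMUSG00000039239) shares 124 exonic bases with the antisense gene Gm29491, Tgfb3 (ENSMUSG00000021253) shares 163 with Gm37804 and 257 with Gm48008 on the other strand, and Tgfbr3 (ENSMUSG00000029287) shares 297 with Gm43422 on its own strand. No such overlap of exons was found for the other 6 genes.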

How the data were processed

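RNA of 45 mouse hearts was sequenced after poly(A) selection. Per the submitters' processing notes the authors used cutadapt, STAR, HTSeq and DESeq2 with GRCm38; versions and strandedness were not stated. The authors deposited normalized counts, a signal scaled by 1 factor per library, in one table for T1 and another for T2 and T3. The deposited tables also hold the authors' log2 fold changes, their p-values, a score that gives each gene's largest raw count, and other columns with pass limits, none of which entered a test here.

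Reads were recovered as whole multiples of each library's step (tolerance 0.1 reads) and equalled the largest count in the authors' tables within 0.6 percent for 100% of genes. Groups were taken from the labels. limma 3.58.1 (R 4.3.3, trend and robust settings) was fitted to log2(normalized count + 1), all groups of a table together, on genes that reached 10 normalized counts in a number of libraries equal to the smallest group. Fold changes are on the log2(value + 1) scale, which understates those of low genes. P-values were adjusted by Benjamini-Hochberg over all genes tested, with a threshold of 0.05. The alternatives were edgeR 4.0.16 and DESeq2 1.42.0 on recovered reads, other scalings, a pseudocount of 5, no filter, a replicate block, only the compared groups, and leaving out each library. TMM scaling, the atrial covariate and the split of the OE MI T3 libraries were chosen after seeing the data. The script was tested on simulated data; Python 3.11.15 with numpy 2.4.6, pandas 2.3.3 and matplotlib 3.10.9 made the summaries and figures.

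Same-numbered libraries did not deviate together: their correlations ran from -0.35 to 0.25 at T1 and from -0.29 to 0.37 later, so the numbers were not treated as pairs. All 9 members are named. In each list the text could name the 4 genes with the largest called rise and the 4 with the largest called fall in OE against WT sham at T1, and 3 each way for that comparison and for MI in WT at each time. Likeness names the nearest gene among those with a mean of at least 50 normalized counts. The members and lists were chosen with earlier results of these data known. Promoter windows came from RefSeq (GRCm38.p6). The values of 1 list gene are not reported here.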

Additional observations from a re-analysis of the deposited data

Results flagged for a closer look

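In 9 of 81 sets of 4 libraries of one gene and group, the highest or lowest library lay far from the other 3 by Dixon's criterion, which chance meets in about 1 in 20 sets. Low libraries were Tgfb1 in WT sham T2 replicate 4 (421.42 normalized counts), Tgfb3 in OE MI T1 replicate 4 (1211.77) and OE MI T3 replicate 4 (428.64), Gdf15 in WT MI T1 replicate 2 (32.78) and Tgfbi in OE MI T3 replicate 4 (679.87). High libraries were Inhba in WT sham T3 replicate 2 (21.11), Gdf15 in OE sham T2 replicate 2 (52.67), Tgfbr2 in WT MI T1 replicate 4 (2435.08) and Tgfbi in OE MI T1 replicate 1 (1393.05). OE MI T3 replicate 4 was the low library for both Tgfb3 and Tgfbi.

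The injury response at T2 differed between OE and WT hearts for 5 genes by the interaction term of the limma fit. The difference was -2.61 for Gdf15, -1.08 for Tgfb2, -0.97 for Tgfb3, -0.63 for Tgfbi and -0.59 for Tgfbr2 on the log2 scale, and none of the 5 was called without OE MI T2 replicate 3.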

How the results depend on the processing

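Of the counts of members called, 152 stayed within 1.5 times the reported count under settings other than leaving out a library and 21 did not. DESeq2 called 2 members for the interaction at T1 (0 reported), 1 for OE against WT with MI at T2 (0), 2 for the same at T3 (1), 1 for the interaction at T3 (0) and 2 for T3 against T2 in OE MI (0), and edgeR called 1 for OE against WT with MI at T2. Library totals gave 8 in OE against WT sham at T2 (5 reported), 1 in OE against WT with MI at T2, 0 in OE against WT sham at T3 (2 reported) and 0 in OE against WT with MI at T3. A pseudocount of 5 gave 1 in OE against WT with MI at T2. The atrial covariate gave 1 in OE against WT sham at T3, 0 in OE against WT with MI at T3 and 5 in T3 against T2 in OE sham (8 reported). OE MI T3 replicates 3 and 4 alone gave 0 in OE against WT with MI, 1 in MI against sham (5 reported) and 2 in T3 against T2, replicates 1 and 2 alone gave 1 in the interaction at T3, and fitting only the compared groups gave 0 in OE against WT with MI at T3. Acvr1b, in OE against WT sham at T1, was at -0.24 and turned to 0.06 under library totals. With replicates 1 and 2 alone the count in OE against WT with MI at T3 was 1 as reported, but the gene was Tgfbi (0.40, limma adjusted p = 0.0145) and not Tgfb1 (-0.29, limma adjusted p = 0.143). The causes were not tested.

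With the replicate block, MI against sham in WT at T1 had 2 calls (4 reported) and OE against WT with MI at T2 had 1 (0 reported). The block also called Gdf15 in OE against WT sham at T2 (1.11, limma adjusted p = 0.0392) and Inhba in T3 against T2 in OE sham (-0.93, limma adjusted p = 0.0432). Libraries correlated best with their own number in 5 of 16 and 10 of 29 cases.

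Leaving out 1 library at a time gave, at T1, 9 to 9 calls for OE against WT sham, 6 to 8 with MI, 2 to 5 for MI in WT, 0 to 0 in OE and 0 to 2 for the interaction. At T2 the ranges in the same order were 4 to 6, 0 to 0, 7 to 8, 0 to 0 and 0 to 5, and at T3 they were 0 to 2, 0 to 2, 4 to 7, 4 to 5 and 0 to 1. For T3 against T2 they were 0 to 0 in WT sham and WT MI, 6 to 8 in OE sham and 0 to 1 in OE MI. Inhba, at 4.48 to 94.2 normalized counts, is the member that depth limits most.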
